A study of Mus musculus with 4 samples.

Results

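The genes described here are 10 that mark basophils, mast cells and eosinophils: Ccr3, Mcpt8, Prss34, Cpa3, Fcer1a, Ms4a2, Gata2, Hdc, Epx and Prg2. They were taken by symbol from 54532 genes, each symbol matched a single gene, and 9 of the 10 had enough counts to be tested. Their RNA was read in 4 libraries of PMN-MDSC (polymorphonuclear suppressor cells of the myeloid line, which resemble neutrophils and hold back T cells) from spleens of newborn C57BL/6 mice. The purified cells had spent 5 days with NECA, an adenosine analogue that activates adenosine receptors (2 libraries), or with the solvent DMSO (2 libraries), and 300000 cells of each condition were lysed. No genotype other than the strain, no concentration of NECA and no method of purification are given in the labels, which also do not say whether replicates came from separate animals or cultures. The p-values therefore measure the spread between these samples, which may be technical. Pairs of values below give replicate 1 first.

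Basophils, mast cells and eosinophils are granulocytes of allergic inflammation and of defence against parasites. Basophils and mast cells carry the high affinity IgE receptor, whose cross-linking releases histamine and proteases, while eosinophils store toxic cationic proteins in their granules and follow eotaxins through the receptor CCR3. Several of these genes are not confined to those cells: immature neutrophils also make histidine decarboxylase, and the transcription factor GATA2 also acts in blood progenitors.

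In these libraries the genes did not behave as one group. The eotaxin receptor gene Ccr3 was 3.50-fold lower with NECA and was the 1 gene of the 9 that passed edgeR's quasi-likelihood test over all genes (adjusted p = 0.0142). The basophil proteases Prss34 and Mcpt8 and the eosinophil granule genes Prg2 and Epx were lower in both NECA libraries than in either DMSO library but did not pass. Hdc, by far the most abundant of the 10, was slightly higher in both NECA libraries and did not pass. The IgE receptor gene Ms4a2 and Gata2 overlapped between the groups, and Fcer1a was almost undetected.

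Libraries held 15864120 to 18712625 counts. A list of 12 neutrophil markers summed to between 123120 and 137897 CPM (a gene's counts as a share of the library, on library sizes scaled by TMM, edgeR's trimmed mean of M-values), against which the labelled cell type was checked, and none of the 12 was at 0. The 10 genes together held 6237 to 7821 counts per library, and Hdc alone made up 77.4% to 91.2% of these. Without Hdc, the other 9 genes summed to 85.0 and 93.1 CPM under DMSO, against 58.7 and 35.3 CPM under NECA. That is at most 0.00948% of all counts of a library, so the values of these 9 genes concern rare transcripts in preparations labelled as PMN-MDSC. The share of neutrophil RNA in them was not tested. In RNA from a mixture, fewer cells of a type and less RNA per cell cannot be told apart.

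Levels per gene length, as the deposited FPKM (fragments scaled for the length of the gene and the depth of the library), ranked Hdc first (50.5 and 49.8 with DMSO), then Prss34 (25.6 and 33.0), Mcpt8 (13.0 and 18.8) and Prg2 (19.8 and 8.84). Mcpt8 and Prg2 overlapped in that order, whereas Hdc and Prss34 each lay above the gene after them in both libraries. Cpa3 stood at 2.20 and 2.02 FPKM. Gata2 (1.34 and 2.08), Ccr3 (1.67 and 1.68), Ms4a2 (1.30 and 1.39) and Epx (1.54 and 0.967) followed within overlapping ranges, and Fcer1a was last at 0.104 and 0.106. With NECA the first 4 kept their places by the group mean, while Ccr3 moved from rank 7 to rank 9, at 0.521 and 0.436 FPKM. In NECA replicate 2 alone, however, Prg2 (8.35) lay above Prss34 (7.89) and Mcpt8 (6.17). In NECA replicate 1 it lay below them (3.81 against 20.1 and 11.7).

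**Figure D1:**
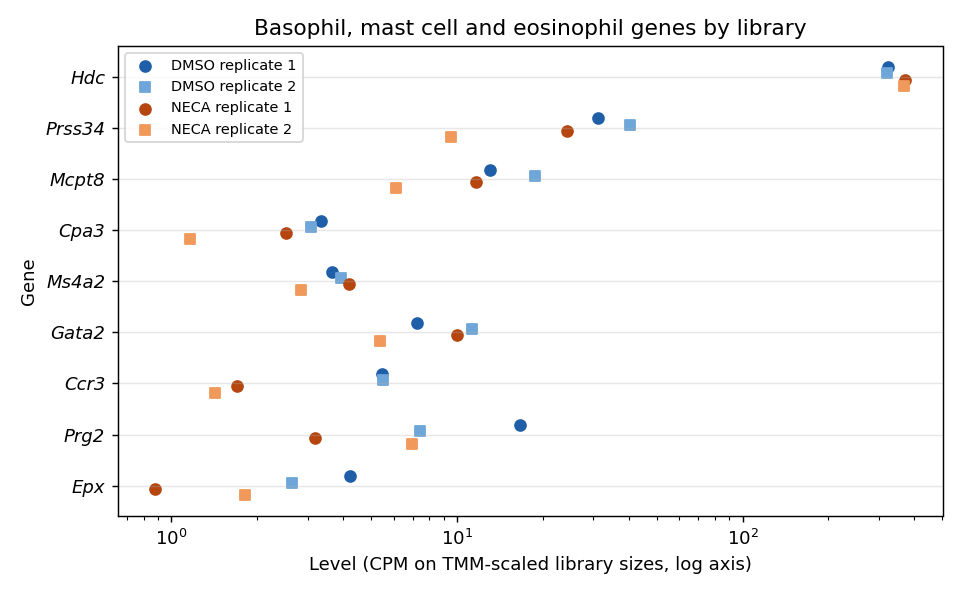
Levels of 9 of the 10 genes (Fcer1a, with at most 3 counts, is left out) in each library, as CPM on a log axis, with blue for DMSO and orange for NECA, circles for replicate 1 and squares for replicate 2. Ccr3 separates the groups with close replicates, and Hdc lies at 319 CPM or more in every library. The libraries of Prss34, Mcpt8, Gata2, Prg2 and Epx spread within both groups, those of Cpa3 and Ms4a2 mainly under NECA.

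Ccr3 encodes the receptor for eotaxins and is carried mainly by eosinophils and basophils (chromosome 9, 124021972 to 124031689, plus strand, GRCm38; ENSMUSG00000035448). It had 105 and 104 counts under DMSO, against 31 and 22 under NECA. As CPM these were 5.49 and 5.52, against 1.70 and 1.42. Both NECA libraries lay far below both DMSO libraries, and the replicates of a group were within 1.20-fold of each other. The log2 fold change was -1.81 (SE 0.30, 95% interval -2.47 to -1.15, adjusted p = 0.0142 by edgeR's quasi-likelihood test with Benjamini-Hochberg adjustment). Over all 13083 genes tested, 1.33% passed in either direction and 0.978% were lower, while 0.352% were higher, so 1 of 9 is a count too small to set the group of genes apart. The fold change hardly moved when a library was left out (-1.95 to -1.69), but without either DMSO library it no longer passed (adjusted p of 0.0925 without replicate 1 and 0.0655 without replicate 2).

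The genes with the most similar profile over the 4 libraries, by Euclidean distance between centred log2(CPM + 1) values among 11523 other genes, were Spic, Ckb, Myo10, Nav1 and Lap3. Spic, a transcription factor of red pulp macrophages, was the nearest: it stood at 11.0 and 10.8 CPM under DMSO, against 3.90 and 3.42 CPM under NECA (log2 fold change -1.57, adjusted p = 0.00409 by edgeR). With 4 libraries such a distance describes little more than a common step between the groups. Of a list of 12 macrophage markers, 11 were lower by the same test, and the list summed to 740 and 644 CPM under DMSO, against 343 and 271 CPM under NECA, with no marker at 0. The part of macrophage RNA in the difference of Ccr3 was not tested.

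The bases upstream of Ccr3 and of 3 other genes are shown because the transcription factor Gata2 is among the 10 and because these windows hold matches to the GATA hexamers closest to their start sites. The hexamers searched were AGATAA (the core form), AGATAG (its variant ending in G), TGATAA (with T as its first base) and TGATAG (with both changes), on both strands of the 250 bases before each RefSeq start (GRCm38.p6), a search chosen after the expression values were seen. The windows lie on chromosome 9, 124021721 to 124021970, plus strand (Ccr3); chromosome 17, 25298144 to 25298393, plus strand (Prss34); chromosome 3, 20242182 to 20242431, minus strand (Cpa3); and chromosome 19, 11623720 to 11623969, minus strand (Ms4a2). Each is written 5′ to 3′ toward its gene, and capitals mark the matches, a match on the other strand reading TTATCT.
Ccr3: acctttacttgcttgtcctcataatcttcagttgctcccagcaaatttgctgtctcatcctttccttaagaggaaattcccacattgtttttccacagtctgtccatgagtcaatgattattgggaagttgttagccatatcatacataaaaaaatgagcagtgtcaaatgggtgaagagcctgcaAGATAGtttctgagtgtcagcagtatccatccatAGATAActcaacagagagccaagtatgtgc
Prss34: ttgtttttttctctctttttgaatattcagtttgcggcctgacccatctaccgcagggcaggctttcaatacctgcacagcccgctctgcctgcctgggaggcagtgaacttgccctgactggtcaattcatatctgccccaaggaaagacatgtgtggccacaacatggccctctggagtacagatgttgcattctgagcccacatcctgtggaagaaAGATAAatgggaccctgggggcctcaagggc
Cpa3: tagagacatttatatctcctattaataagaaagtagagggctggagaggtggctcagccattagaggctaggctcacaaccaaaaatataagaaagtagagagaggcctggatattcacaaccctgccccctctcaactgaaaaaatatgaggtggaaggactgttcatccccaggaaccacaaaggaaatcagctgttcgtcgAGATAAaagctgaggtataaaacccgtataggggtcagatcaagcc
Ms4a2: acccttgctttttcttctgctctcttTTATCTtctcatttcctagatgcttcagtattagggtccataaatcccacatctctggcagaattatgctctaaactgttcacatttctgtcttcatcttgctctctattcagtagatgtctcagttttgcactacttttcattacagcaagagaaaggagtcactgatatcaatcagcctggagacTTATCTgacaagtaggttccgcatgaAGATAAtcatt

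Ccr3 had 2 matches, starting 64 and 30 bases before the start, Prss34 had 1 at 31 bases, Cpa3 had 1 at 46 bases and Ms4a2 had 3, at 224, 37 and 11 bases. Of the 10 genes, 9 had an entry (Gata2 with 2 windows), and 6 of these 10 windows held at least 1 match, against 26.5% of 32851 windows over all genes. Fcer1a and Hdc held 1 match each, and the windows of Mcpt8, Epx and Gata2 held none. Of the genes with a match, Ccr3 was lower with NECA, and Prss34 and Cpa3 were lower in both NECA libraries but did not pass. Ms4a2 overlapped between the groups, Hdc was higher in both NECA libraries but did not pass, and Fcer1a had too few counts for a test. Any link between matches and expression was not tested. A match is a run of letters and says nothing of binding.

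Among the basophil genes, Prss34 encodes a tryptase-like serine protease of basophils and mast cells (chromosome 17, 25298394 to 25300165; ENSMUSG00000056399). It had 31.2 and 40.3 CPM under DMSO, against 24.4 and 9.56 CPM under NECA. The groups did not overlap, but the NECA libraries were 2.55-fold apart. Its log2 fold change of -1.06 (SE 0.29, 95% interval -1.68 to -0.43) had an adjusted p of 0.0937 by edgeR. Leaving out NECA replicate 1 gave -1.90 and leaving out replicate 2 gave -0.55, and the gene passed in both of these reduced comparisons (adjusted p = 4.95e-23 and 0.0148), where the spread of the NECA group is not seen.

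Mcpt8 encodes mast cell protease 8, in mice a product of basophils (chromosome 14, 56082166 to 56085273; ENSMUSG00000022157). Its levels were 13.1 and 18.8 CPM under DMSO, against 11.7 and 6.14 CPM under NECA. The higher NECA library lay nearer to the lower DMSO library than either lay to its own replicate. The log2 fold change was -0.83 (SE 0.26, 95% interval -1.40 to -0.25, edgeR adjusted p = 0.145), and moved to -1.37 or -0.45 when NECA replicate 1 or 2 was left out. It passed without NECA replicate 1 (adjusted p = 1.1e-06).

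Cpa3, the carboxypeptidase of mast cell granules that basophils and early progenitors also express (chromosome 3, 20215620 to 20242181), had 64 and 58 counts under DMSO, against 46 and 18 with NECA. That corresponds to 3.34 and 3.08 CPM against 2.53 and 1.16 CPM. Both NECA libraries were lower, and the interval of the log2 fold change of -0.78 included 0 (-1.64 to 0.08, edgeR adjusted p = 0.373). Leaving out NECA replicate 1 gave -1.46 and leaving out NECA replicate 2 gave -0.35, and neither passed.

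The high affinity IgE receptor is built from an IgE-binding alpha chain (Fcer1a), a signal-amplifying beta chain (Ms4a2) and a gamma chain (Fcer1g) that many myeloid receptors share. Fcer1a (chromosome 1, 173221284 to 173227214) had 2, 2, 3 and 0 counts in DMSO replicates 1 and 2 and NECA replicates 1 and 2, too few for a test. The count of 0 allows up to 0.194 CPM (3 counts, counting error only), which is above the level in each of the other libraries, so no difference was detectable at this depth. Ms4a2 (chromosome 19, 11615523 to 11623719) had 3.66 and 3.93 CPM under DMSO, against 4.17 and 2.84 CPM under NECA. NECA replicate 1 lay above and NECA replicate 2 below both DMSO libraries. Its log2 fold change was -0.11 (SE 0.30, 95% interval -0.76 to 0.55, edgeR adjusted p = 0.919), an interval wide enough to hold changes in either direction. Of its 3103 annotated stretches of 75 bases, 38 also occur in Ms4a4b, so a small share of its reads could be assigned to either. By contrast Fcer1g had 539 and 564 FPKM under DMSO, against 588 and 616 FPKM under NECA, far above both other chains.

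Of 12 genes of signalling from this receptor, Fcer1g among them, 1 was lower and 0 were higher by edgeR (3 lower and 3 higher at an unadjusted p under 0.05, 0 called higher by DESeq2 or limma-voom). The lower gene was Fyn, a Src family kinase that T cells also use, at 7.58 and 7.97 CPM under DMSO, against 3.84 and 2.71 CPM under NECA (log2 fold change -1.24, adjusted p = 0.0372). DESeq2 and limma-voom called it too, but edgeR called 0 of the 12 when DMSO replicate 1, DMSO replicate 2 or NECA replicate 2 was left out. Markers of T and NK cells summed to 29.1 and 30.2 CPM under DMSO, against 17.9 and 18.9 CPM under NECA. Of these sums Cd3d alone held 15.8 and 19.4 against 13.8 and 15.6 CPM (log2 fold change -0.26). The median log2 fold change of the 6 tested T and NK cell markers was -1.52. The part of T and NK cells in the value of Fyn was not tested. Syk, the kinase recruited to the gamma chain and the most abundant of the 12, had 672 and 671 CPM under DMSO, against 754 and 707 CPM under NECA (adjusted p = 0.262).

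Gata2, a zinc finger transcription factor of progenitors, mast cells and basophils (chromosome 6, 88193891 to 88207032), had 7.26 and 11.3 CPM under DMSO, against 10.00 and 5.36 CPM under NECA. The groups overlapped: the highest level was in DMSO replicate 2 and the lowest in NECA replicate 2. On the log2 scale the difference was -0.26 (SE 0.29, 95% interval -0.89 to 0.37, edgeR adjusted p = 0.744), and it turned to 0.09 or 0.11 when replicate 2 of DMSO or of NECA was left out. Among 13 other lineage factors 12 were tested, and Irf8, a factor of monocyte and dendritic cell development that also restrains neutrophil fate, was the 1 gene called lower (-1.34, adjusted p = 0.0423), with 0 called higher by edgeR, DESeq2 or limma-voom (2 at an unadjusted p under 0.05 by edgeR). Its CPM was 15.8 and 15.0 under DMSO, against 8.35 and 3.62 under NECA. DESeq2 and limma-voom called it too, but edgeR called 0 of the 12 without either DMSO library or with DESeq2's size factors.

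Hdc encodes histidine decarboxylase, the enzyme that makes histamine (chromosome 2, 126593667 to 126619299; ENSMUSG00000027360). It had 324 and 319 CPM under DMSO, against 371 and 368 CPM under NECA. Replicates were within 2% of each other and the NECA libraries lay above the DMSO libraries, opposite to Ccr3 and the protease genes. Of the 12 neutrophil markers, 11 also had both NECA libraries above both DMSO libraries, against 22.4% of all genes tested. The median log2 fold change of the 12 was 0.17. Mmp8 and Mmp9, proteases of neutrophil granules, were called higher by edgeR (6 of the 12 by DESeq2, 7 by limma-voom, and 0 by edgeR with total counts as library size or without DMSO replicate 1). The part of neutrophil RNA in the value of Hdc was not tested. The difference was 0.20 on the log2 scale (SE 0.05, 95% interval 0.09 to 0.31). It did not pass after adjustment (adjusted p = 0.0844 by edgeR), passed by DESeq2 (adjusted p = 0.0222) and by limma-voom (adjusted p = 0.0454), and was 0.13 (adjusted p = 0.27) with total counts as library size. The genes nearest to it in profile were Abcc5, Il17ra, Pacs1, Abhd5 and Edem1, of which Il17ra had 655 and 649 CPM under DMSO, against 752 and 740 CPM under NECA (adjusted p = 0.067).

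Of 8 other genes of histamine storage, breakdown and sensing, 3 were tested and 0 were called by edgeR, DESeq2 or limma-voom (1 at an unadjusted p under 0.05). The receptor gene Hrh2 was the most abundant, at 63.2 and 60.5 CPM under DMSO, against 71.7 and 67.5 CPM under NECA (adjusted p = 0.298). Aoc1, Hrh1 and Hrh3 had 0 counts in every library, which allows at most 0.157 to 0.194 CPM per library.

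**Figure D2:**
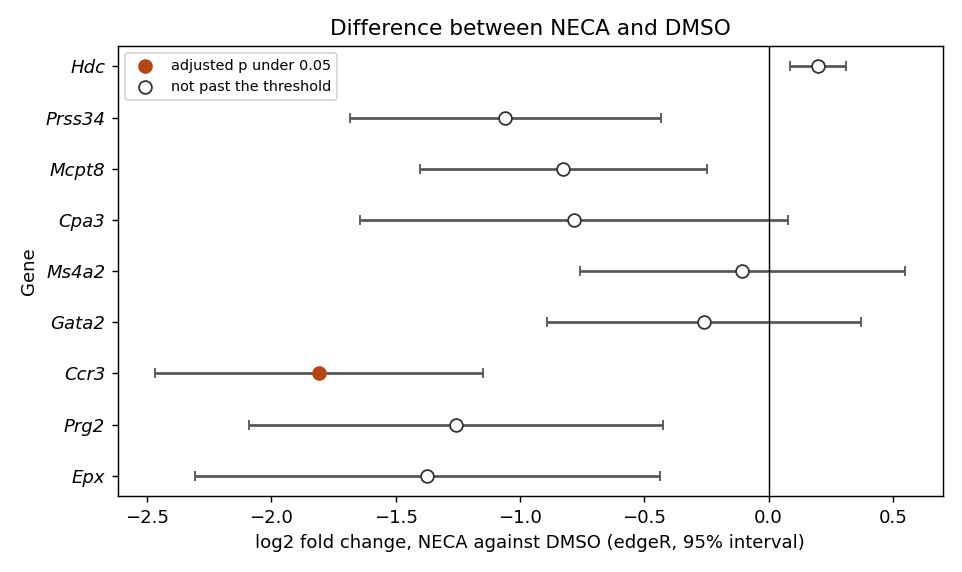
Log2 fold changes of NECA against DMSO for the 9 tested genes (points) with 95% intervals (bars), 2 libraries per group, edgeR. Only Ccr3, the filled point at -1.81, passed the adjusted threshold, and the intervals of Cpa3, Ms4a2 and Gata2 include 0.

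Prg2 encodes major basic protein, the cationic core of the eosinophil granule (chromosome 2, 84980461 to 84983632; ENSMUSG00000027073). Its levels were 16.6 and 7.44 CPM under DMSO, against 3.19 and 6.98 CPM under NECA. The lower DMSO library and the higher NECA library lay close together, and libraries of a group were 2.23-fold apart under DMSO, against 2.19-fold apart with NECA. The log2 fold change was -1.26 (SE 0.38, 95% interval -2.09 to -0.43, edgeR adjusted p = 0.125). It ranged from -0.55 (DMSO replicate 1 left out) to -1.92 (NECA replicate 2 left out), and it passed when either NECA library was left out (adjusted p of 0.0324 without replicate 1 and 1.15e-08 without replicate 2).

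Epx, the eosinophil peroxidase (chromosome 11, 87864000 to 87875536), had 81 and 50 counts under DMSO, against 16 and 28 with NECA, or 4.23 and 2.66 CPM against 0.879 and 1.81 CPM. Its libraries stood in the same order as those of Prg2, with DMSO replicate 1 highest and NECA replicate 1 lowest. On the log2 scale the difference was -1.37 (SE 0.43, 95% interval -2.31 to -0.44, edgeR adjusted p = 0.135), with -0.93 when NECA replicate 1 was left out and -1.96 when replicate 2 was, where it passed (adjusted p = 0.0218).

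NECA replicate 2 was lowest for Ccr3, Mcpt8, Prss34, Cpa3, Ms4a2 and Gata2, and NECA replicate 1 for Epx and Prg2, while over all genes tested these libraries were lowest for 28.9% and 21.2%. That place of Epx and Prg2 was not shared by a list of other eosinophil genes, of which 5 of 8 tested (Il5ra, Ear1, Ear2, Ear6 and Adgre4) were lowest in NECA replicate 2 and 1 (Alox15) in NECA replicate 1. Counts of pairs of genes within a library can be compared without normalization. Mcpt8 made up 29.5%, 31.8%, 32.4% and 39.1% of the counts of Mcpt8 and Prss34 in DMSO replicates 1 and 2 and NECA replicates 1 and 2. The exact 95% binomial intervals, which cover counting error only, were 26.4% to 32.7% in DMSO replicate 1 and 32.9% to 45.5% in NECA replicate 2, and did not overlap each other, while those of both other libraries overlapped these.

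The share of Epx in Epx and Prg2 was 20.3%, 26.3%, 21.6% and 20.6% in the same order, with overlapping intervals. A pair across the lineages varied far more: Prg2 made up 34.7% (31.6% to 37.9%) of the counts of Prg2 and Prss34 in DMSO replicate 1 and 15.6% (13.3% to 18.1%) in DMSO replicate 2. With NECA the share was 11.6% (8.89% to 14.7%) in replicate 1 and 42.2% (36.1% to 48.5%) in replicate 2. The libraries of each group were on opposite sides, so this ratio separated replicates and not treatments.

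**Figure D3:**
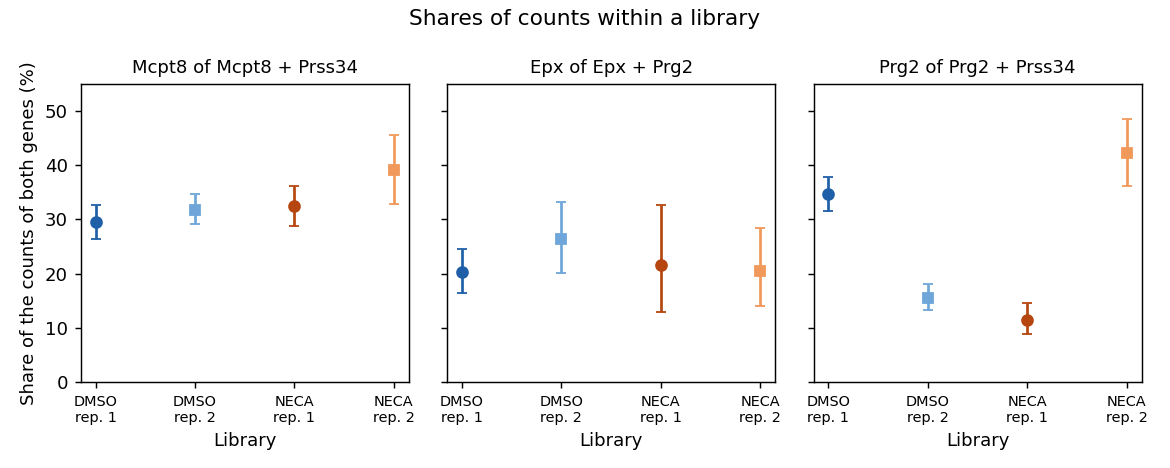
Share of the counts of 2 genes that belong to the first, in percent, by library, with exact 95% binomial intervals as bars. The share of Mcpt8 against Prss34 runs from 29.5% to 39.1% and that of Epx against Prg2 from 20.3% to 26.3%, whereas the share of Prg2 against Prss34 runs from 11.6% to 42.2% with the replicates of each group far apart.

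Counted together, 6 of the 9 tested genes had both NECA libraries below both DMSO libraries and 1 had both above, against 24.3% and 22.4% of all genes tested. At an unadjusted p under 0.05, 5 were lower, against 8.88% of all genes. Their median log2 fold change was -0.83, against -0.01 for all genes. These genes were chosen with earlier results of the same libraries known, so the counts describe them and support nothing further. With either DMSO library left out edgeR called 0 of them, where, for replicates 1 and 2, 0.405% and 0.718% of all genes passed and 4 and 5 of the 9 had an unadjusted p under 0.05. It called 4 (Ccr3, Mcpt8, Prss34 and Prg2) with NECA replicate 1 left out and 4 (Ccr3, Prss34, Epx and Prg2) with replicate 2 left out, where 6.28% and 2.38% of all genes passed. Over the same 9 genes DESeq2 called 2 (2.44% of the genes it adjusted), limma-voom 3 (2.45%), edgeR without a filter on low counts 6 (3.92%), edgeR with total counts or DESeq2's size factors 1 each (1.82% and 1.16%), and limma on log2 FPKM 0 with either pseudocount (0.00764% in both cases).

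**Figure D4:**
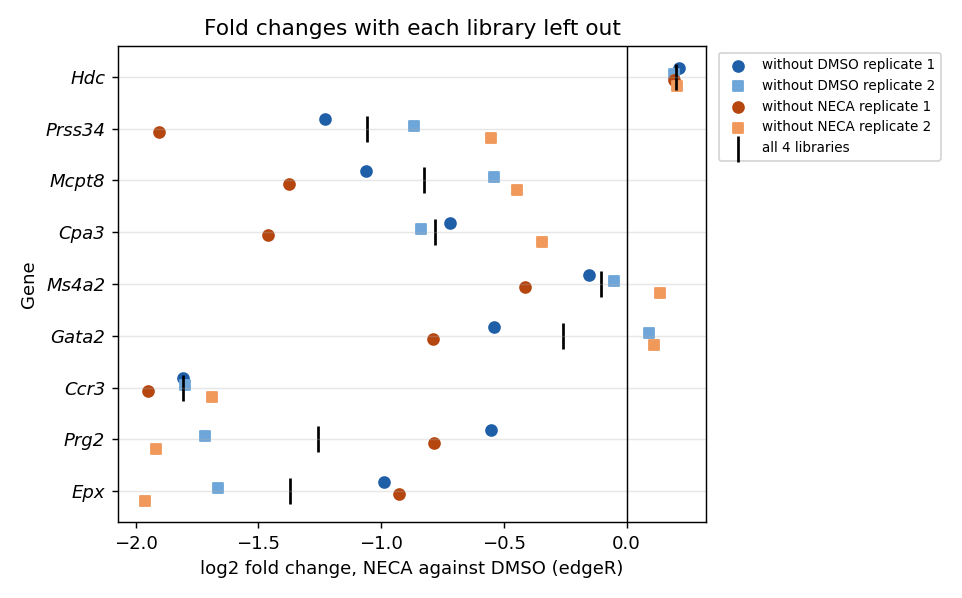
Log2 fold changes of the 9 tested genes with all libraries (black bars) and with each library left out (coloured by the library that is missing), edgeR. Ccr3 and Hdc stay near their values, Prss34, Mcpt8 and Cpa3 are lowest without NECA replicate 1, and Prg2 and Epx are lowest without NECA replicate 2.

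Other genes of these cells, from lists that held none of the 10, lay in both directions. Among the tested ones, both NECA libraries were below both DMSO libraries for 1 basophil, 2 mast cell and 5 eosinophil genes. They were above for 3 basophil, 2 mast cell and 2 eosinophil genes. Over all genes tested these shares were 24.3% and 22.4%. Of 12 basophil, 15 mast cell and 11 eosinophil genes, 38 in all, 23 were tested and 0 were called by edgeR (6 lower and 4 higher at an unadjusted p under 0.05; 0 called by DESeq2 and 1, Alox15, by limma-voom). Their median log2 fold changes were 0.15 over 7 tested basophil genes, -0.11 over 8 mast cell genes and -0.93 over 8 eosinophil genes. The basophil genes Cd200r3 (-0.63) and Cyp11a1 (-0.23) lay below 0, at 3.95 CPM or less in every library. Il3ra, Csf2rb, Csf2rb2, Il18rap and Ifitm1 lay above 0, at 13.7 CPM or more. The neutrophil markers lay above 0 as well (median 0.17), and the part of neutrophil RNA in these basophil list values was not tested. At an unadjusted p under 0.05 by edgeR, 4 of those 8 eosinophil genes were lower and 1 was higher. Of all genes tested, 8.88% were lower at that threshold and 15.7% passed it in either direction. Whether the eosinophil list differed from the other lists was not tested. The most abundant of each list were Csf2rb, the common beta chain of the receptors for interleukins and GM-CSF of the granulocyte lineages (418 and 429 CPM with DMSO, 461 and 478 with NECA), Kit, the stem cell factor receptor (23.3 and 21.7 against 17.0 and 15.7 CPM), and Cebpe, a factor of granule genes in neutrophils and eosinophils (651 and 649 against 722 and 682 CPM). Of the CCR3 ligands Ccl11 and Ccl7 had no counts, and Ccl5, the 1 ligand tested of 6, had 13, 17, 2 and 1 counts in DMSO replicates 1 and 2 and NECA replicates 1 and 2 (edgeR adjusted p = 0.107).

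Cd200r3, an activating receptor of basophils and mast cells, had 3.34 and 2.82 CPM under DMSO, against 2.69 and 1.23 CPM under NECA, the same order of groups as Cpa3 (adjusted p = 0.495). Alox15, a lipoxygenase of eosinophils and of resident macrophages, had 7.05 and 5.90 CPM under DMSO, against 2.64 and 3.10 CPM under NECA (log2 fold change -1.18, adjusted p = 0.055 by edgeR). Siglecf, the sialic acid binding lectin that marks eosinophils, stood at 12.6 and 12.2 against 13.9 and 13.3 CPM (adjusted p = 0.76), where both NECA libraries lay above both DMSO libraries. These 3 were picked after their values were seen.

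Marker lists of other cells moved in these libraries as well. B cell markers summed to 145 and 152 CPM under DMSO, against 77.4 and 13.8 CPM under NECA, and erythroid markers to 1178 and 484 against 339 and 19.1 CPM. Both sums were lowest in NECA replicate 2, as were 6 of the 9 tested genes. The macrophage sum was lowest there too, as were 11 of the 12 macrophage markers. All 8 genes of the B cell list and all 8 of the erythroid list were detected. Of the 8 B cell markers, all were lower at an unadjusted p under 0.05, and 1 was called by edgeR, 1 by DESeq2 and 8 by limma-voom. EdgeR called 8 of them without either NECA library, and 0 without either DMSO library or with DESeq2's size factors. Of the erythroid markers edgeR called 0 (8 at an unadjusted p under 0.05, with 0 called by DESeq2 and 2 by limma-voom). As for the B cell markers, edgeR called more of them without either NECA library, but not without either DMSO library. Several progenitor and megakaryocyte markers are made by the precursors of basophils too. Their list summed to 84.4 and 94.3 CPM under DMSO, against 76.3 and 75.9 CPM under NECA. Of these sums Myb alone held 42.3 and 39.6 against 40.3 and 47.8 CPM (log2 fold change 0.10). The median log2 fold change of the 7 tested markers was -0.49, and 6 of them lay below 0, against 51.4% of all genes tested. EdgeR called 0 of the 7. The part of these cells in the values of the basophil and eosinophil genes was not tested.

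**Figure D5:**
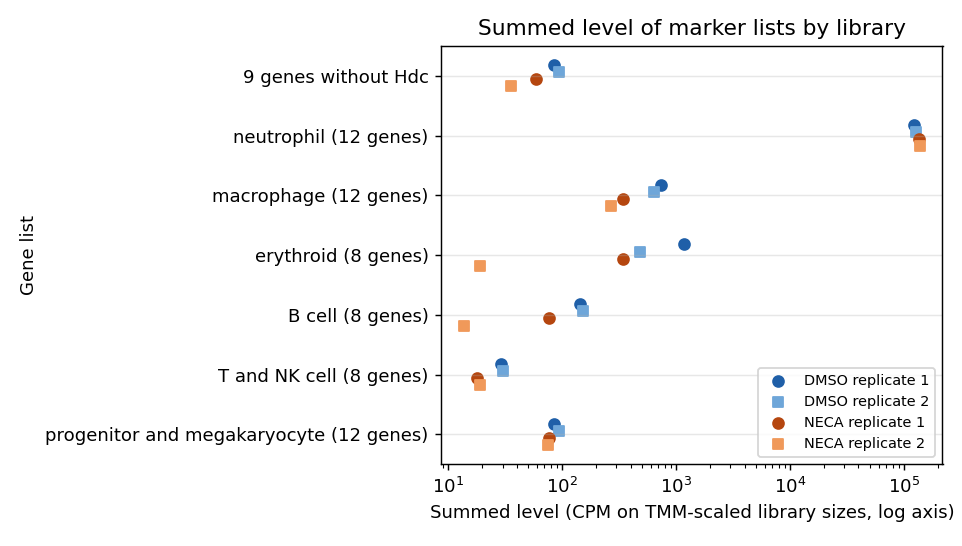
Summed level of marker lists in each library, as CPM on a log axis, beside the 9 genes without Hdc. Neutrophil markers lie at 123120 CPM or more in every library, while the 9 genes and the macrophage, B cell and erythroid markers are lowest in NECA replicate 2.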

How the data were processed

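The authors deposited, per the file headers, raw counts (whole numbers) and FPKM for each gene and library. The tools HISAT, StringTie and edgeR, and mm10 and GRCm38 as builds, come from the submitters' processing notes. The counter, the annotation release, the use of strand and the handling of multiply mapped reads were not given in the sources used here. Per the labels' protocols, cDNA was made with SMARTer chemistry and amplified by PCR, so counts are not independent molecules.

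The deposited counts were analysed in R 4.3.3. Of the symbols, 27 turned into dates were restored from identifiers. Genes were kept by filterByExpr (minimum count 10) of edgeR 4.0.16, scaled by TMM and tested with glmQLFit and glmQLFTest, 2 residual degrees of freedom, Benjamini-Hochberg over 13083 genes, threshold 0.05. SE is the fold change over the square root of F. Deposited FPKM served for levels between genes. Alternatives used DESeq2 1.42.0 and limma 3.58.1. The test was checked on simulated data. Coordinates are from GENCODE M21, upstream windows from RefSeq.

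The 10 genes and the lists were chosen with earlier results of these data known. Named genes were the 10, called list members, the most abundant member of a list and the 5 nearest in profile to the gene with the smallest p and to the most abundant one; others were chosen after their values were seen.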

Additional observations from a re-analysis of the deposited data

How the results depend on the processing

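With total counts as library size or DESeq2's size factors, Ccr3 alone was called; by the first, 238 genes passed, 217 of them lower, against 174 and 128 with TMM, and the median gene moved to -0.08. The 10 genes held 2 calls by DESeq2 (Ccr3 and Hdc; 281 genes called in all, 131 lower), 3 by limma-voom (Ccr3, Prss34 and Hdc; 320 in all and 31 over the other lists against 16) and 6 with no filter on low counts (875 and 54). With limma on log2(FPKM + 0.1) or log2(FPKM + 1) there were 0 calls among them and on the lists and 1 in all. The median of the 9 was -0.59 with the larger pseudocount, which understates changes of low genes.

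Leaving out 1 library at a time gave 0 to 4 calls among the 9, 53 to 821 over all genes and 11 to 50 on the lists, with a median of the 9 of -0.93 to -0.45. Signs turned for Gata2 (-0.79 to 0.11, above 0 without DMSO replicate 2, 0.09, or NECA replicate 2) and for Ms4a2 (-0.42 to 0.14, above 0 without NECA replicate 2). The other 7 kept their sign in every alternative run. The cause of these changes was not tested.

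The replicate numbers share no stated animal or day, and deviations of same-numbered libraries correlated at r = 0.02 over genes. With a replicate block, 2 of the 9 (Ccr3 and Prss34), 421 genes in all and 42 on the lists were called.

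Depth limits the rarest genes: 1 count is 0.0523 to 0.0646 CPM.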

Other observations

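The 3 proteases Cma1, Mcpt4 and Tpsb2 of connective tissue mast cells followed the replicate number and not the treatment. The chymase genes Cma1 and Mcpt4 and the tryptase gene Tpsb2, added up, had 57 counts in DMSO replicate 1 and 58 in NECA replicate 1, but 10 in DMSO replicate 2 and 0 in NECA replicate 2. As summed CPM these were 2.98, 3.19, 0.531 and 0, the last with a limit of 0.194 CPM from 3 counts. Tpsb2 alone had 24, 3, 21 and 0 counts in DMSO replicates 1 and 2 and NECA replicates 1 and 2, and Mcpt4 had 22, 3, 24 and 0. Cpa3, a granule enzyme of the same cells, did not share this order (64, 58, 46 and 18 counts). Of the other tested genes of the mast cell list, Kit and Hpgds were lower in both NECA libraries. Mitf and Slc18a2 were higher in both, and Il1rl1 overlapped between the groups. The 3 proteases were picked after their values were seen, and their copies in the tryptase and chymase clusters make the counts uncertain. The labels tie the replicate numbers to no animal or day.

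Of the eosinophil ribonucleases, Ear1 had 69, 28, 13 and 10 counts and Ear6 had 52, 22, 8 and 5 in DMSO replicates 1 and 2 and NECA replicates 1 and 2, while Ear2 had 1395, 1389, 1398 and 1112. By edgeR the log2 fold changes were -1.89 for Ear1 (adjusted p = 0.106), -2.32 for Ear6 (adjusted p = 0.089) and 0.02 for Ear2 (adjusted p = 0.937). This family has near-identical copies, so the split of reads between its members is uncertain.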
